A study of Mus musculus with 12 samples.

Results

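Astrocytes (immature) 1 [10-P], a radial glia-like astrocyte population of the newborn mouse cortex, comprised 841 of 36263 cells in this single-cell RNA-seq series. Its members were the cells that carry this name in the deposited cell table, where names had been transferred from a reference atlas on the basis of gene expression. They are written 10-P here. The nearest population by name, Astrocytes (immature) 2 [13-P], comprised 5708 cells and is written 13-P.

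The series covered prefrontal cortex of mice at P0, the day of birth, in wild-type (WT), heterozygous (HET) and homozygous (HOM) Myt1l mutants. The labels give the strain as C57BL/6J and the study's methods as C57BL/6N. Myt1l encodes a zinc finger transcription factor of neurons. Every cell of the mutants carried the germline allele, a CRISPR-made 7 bp deletion in exon 6 that shifts the reading frame to a stop at residue 78 and depletes full-length protein without removing the transcript, and the WT animals carried no engineered allele. For each genotype, cells of 2 animals were fixed in 80% methanol, pooled and captured in 1 droplet library read from the 5′ end. The 12 samples are 4 sequencing runs of each of the 3 libraries, and no column ties a cell to an animal. There were therefore no replicates, no difference below has a test, and a difference between genotypes cannot be told apart from one between pools of animals or between libraries. Genotype names here follow the deposited cell table, gene table and labels. The study's figure legends attach the same cell numbers to the genotypes in another order. The study reports more layer I neurons in homozygous mutants than in controls. LayerI [19-P] held 71 of 10503, 114 of 12072 and 237 of 13688 cells under the deposited names WT, HET and HOM. The reported direction appears with the deposited names and not with the order of the legends. The assignment was not tested further. Every direction between WT, HET and HOM below rests on the deposited names. Counting intervals are exact Clopper-Pearson 95% intervals and cover counting error only.

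Radial glia are the neural stem cells of the embryonic cortex. They line the ventricle, send a long fibre to the pial surface and are kept in the stem cell state by Notch signalling and by transcription factors such as SOX2 and HES5. Around birth most of them stop making neurons, lose the ventricular contact and turn into astrocytes, while some stay in the ventricular wall as neural stem cells and others become ependymal cells. Astrocytes clear glutamate, buffer ions, supply lipids and contact blood vessels, and at birth these functions are only partly in place.

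Levels are sums of the depth-corrected values of a gene over the cells of a group, scaled to a total of 1000000 per group and written per 1000000. Veph1, which encodes a membrane-associated protein with a pleckstrin homology domain, lies on chromosome 3 from 66053558 to 66296837 on the minus strand (mm10, GENCODE annotation). Its level in 10-P was 124, 94.5 and 134 in WT, HET and HOM. In 13-P it was 8.71, 5.25 and 5.67. Entpd2, an ectonucleotidase of neural stem cells that degrades extracellular ATP, lies on chromosome 2 from 25395874 to 25401321 on the plus strand. Its level was 154, 205 and 144 in WT, HET and HOM, against 14.5, 10.5 and 9.57 in 13-P. Both genes stood far above 13-P in all 3 libraries. Veph1, Entpd2, Hgf and Dct were given beforehand as markers of 10-P, and the names of cells rest on the same expression values. Their levels by type are therefore a description and no test.

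Hgf, the gene of hepatocyte growth factor, lies on chromosome 5 from 16553495 to 16620152 on the plus strand. It stood at 140, 130 and 43.2 in WT, HET and HOM, against 7.99, 6.69 and 2.48 in 13-P. Dct, which encodes dopachrome tautomerase and is known from pigment cells and from cortical progenitors, lies on chromosome 14 from 118012790 to 118052244 on the minus strand. It stood at 75.0 and 101 in WT and HET, and in HOM it was at 0. Of the 21 cell types, 10-P had the highest mean level over the libraries for Veph1, Entpd2 and Hgf. For Dct it came second to Choroid plexus [20-P], whose 474 in WT came from 1 of 8 cells and which was at 0 in both mutant libraries.

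**Figure D1:**
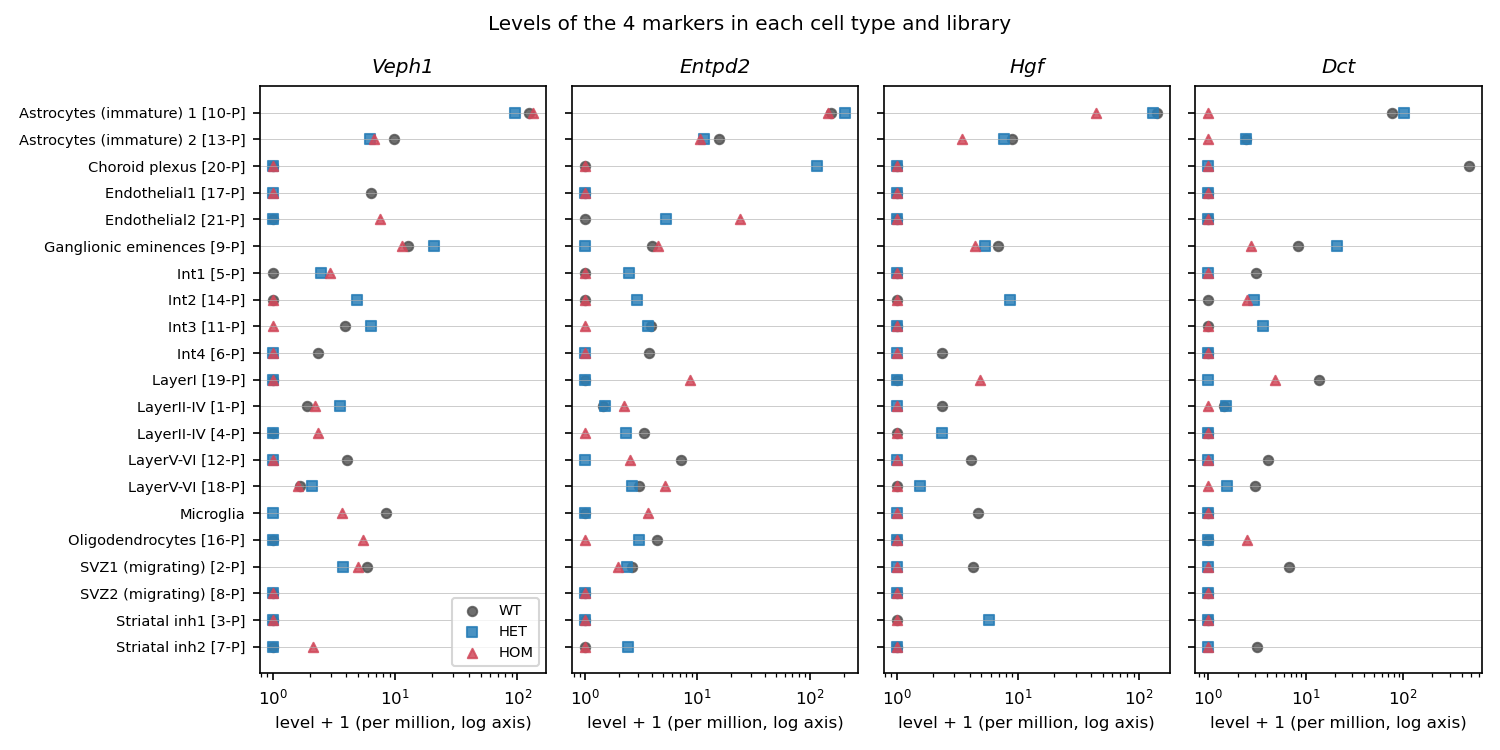
Levels of Veph1, Entpd2, Hgf and Dct in each of the 21 cell types (rows) and libraries (circles WT, squares HET, triangles HOM), as depth-corrected values per 1000000 plus 1 on a log axis. The 10-P row lies to the right of the other rows for Veph1, Entpd2 and Hgf in every library, while Dct in 10-P lies at 0 in HOM and its highest point is the WT choroid plexus type.

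The markers were found in only some of the cells. At least 1 of the 4 markers had a value above 0 in 37.9% of 10-P cells in WT (33.2 to 42.8%), 37.5% in HET (31.4 to 43.8%) and 27.6% in HOM (21.3 to 34.7%). In 13-P cells the share was 3%, 2.37% and 1.57%. In neurons of the layer types, which should lack these genes, it was 0.389%, 0.286% and 0.364%, at median depths of 858, 945 and 1244 molecules per cell against 1900, 2079 and 1106 in 10-P.

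The cells split further by the authors' own unsupervised Leiden clusters. Cluster 19 held 449 of the 841 cells (53.4%), and 87.9% of the 511 cells of that cluster were 10-P. Cluster 0 held 293 (34.8%), but 4205 of its 4595 cells were 13-P. Cluster 4, in which upper-layer neurons were the most frequent type, held 53. Cluster 16, of whose 663 cells 568 were named Endothelial2 [21-P], held 15, and 31 cells lay in other clusters. These clusters differed strongly in depth and in markers. In cluster 19 the median depth of 10-P cells was 4845, 5281 and 5675 molecules in WT, HET and HOM, and 57.3%, 64.4% and 54.7% of cells had at least 1 of the 4 markers. In cluster 0 the medians were 688.5, 671 and 644.5 molecules, and the shares with a marker were 13.9%, 6.32% and 11.8%. Cells with a marker numbered 0 of 53 in cluster 4 (0 to 6.72%) and 0 of 15 in cluster 16 (0 to 21.8%).

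Levels of other genes separated the clusters in the same way. Sfrp1, a secreted Wnt antagonist, stood at 1773, 1553 and 1568 in cluster 19 of WT, HET and HOM and at 340, 424 and 389 in cluster 0. Tubb3, the neuronal β-tubulin gene, stood at 91.7, 59.7 and 90.5 in cluster 19 and at 680, 1153 and 958 in cluster 0. The 25 cortical neuron genes summed to 3686, 3280 and 3760 in cluster 19 and to 7824, 8403 and 7641 in cluster 0. They summed to 7790, 7409 and 6808 in 13-P and to 16893, 17753 and 16943 in all other cells. The 16 radial glia transcription factors summed to 3929, 4518 and 4253 in cluster 19, to 1533, 1419 and 984 in cluster 0 and to 1393, 1703 and 1362 in 13-P. The 30 astrocyte genes summed to 36568, 37422 and 38646 in cluster 19 and to 13894, 16165 and 16823 in cluster 0. In 13-P they summed to 20050, 20706 and 20614. The 10-P cells of cluster 19 were thus high in both radial glia factors and astrocyte genes. Those of cluster 0 were shallow cells with more neuronal RNA. The part of depth in these sums was not tested. In the neuron and radial glia sums the members in cluster 0 lay closer to 13-P than to cluster 19, though more of them held a marker than in 13-P. Because the clusters were drawn from the same expression values, this is a description, and the comparisons of genotypes below also give values for cluster 19.

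Over the series, the libraries held 10503 WT, 12072 HET and 13688 HOM cells, with median depths of 1045, 1099 and 1330 molecules per cell. In all, 648 cell barcodes occurred in more than 1 library, 31 cells of 10-P had such a barcode, and 3 barcodes belonged to 10-P cells in both libraries. Xist RNA was found in 95 of the 409 WT cells of 10-P and in 0 of 251 HET and 0 of 181 HOM cells, while Y-linked genes were found in 32, 56 and 24 cells, so the WT pool held cells of both sexes. In all other cells Xist was found in 2026 of 10094 WT, 2 of 11821 HET and 1 of 13507 HOM cells. Female cells were thus nearly absent from both mutant pools. A difference between WT and either mutant cannot be told apart from a difference in sex. The ribosomal RNA-like Gm42418 stood at 25880, 13088 and 14311 in WT, HET and HOM within 10-P. Within the deposited values, deep cells kept fewer low values: 10-P cells of 3000 to 4500 molecules had a median of 673.5 genes above 0 where the cell table gives 2248 detected genes, and cells of 800 to 1000 molecules had 594 in both.

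The 10-P cells were a smaller part of both libraries labelled mutant than of the one labelled WT. They made up 409 of 10503 WT cells (3.89%, interval 3.53 to 4.28%), 251 of 12072 HET cells (2.08%, 1.83 to 2.35%) and 181 of 13688 HOM cells (1.32%, 1.14 to 1.53%). The 3 intervals did not overlap, and relative to WT the share was 0.534 in HET and 0.340 in HOM. The 13-P cells went the other way, with 12.4% in WT, 15.4% in HET and 18.6% in HOM. Among cells of both immature astrocyte types, 10-P accounted for 23.9%, 11.9% and 6.63%. Shares of 1 library sum to a fixed total, so a lower share of 1 type and a higher share of another are not independent.

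The share was further from WT for members in cluster 19 than for those outside it. Members in cluster 19 made up 2.28% of WT cells (2.00 to 2.58%), 1.12% of HET cells (0.938 to 1.32%) and 0.548% of HOM cells (0.431 to 0.686%), which is 0.491 and 0.241 of the WT share. Members outside cluster 19 made up 1.62%, 0.961% and 0.774%, or 0.594 and 0.478 of WT. All cells of cluster 19, whatever their transferred name, made up 2.61%, 1.26% and 0.621%. Within 10-P the part lying in cluster 19 was 58.4%, 53.8% and 41.4% in WT, HET and HOM, and the part in cluster 0 was 29.8%, 37.8% and 42.0%. Cluster 16 held 14 of the 181 HOM members (7.73%), 1 of the WT members and 0 of the 251 HET members. With no animals to compare, it was not tested whether the shares followed genotype, dissection or handling of the pools.

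**Figure D2:**
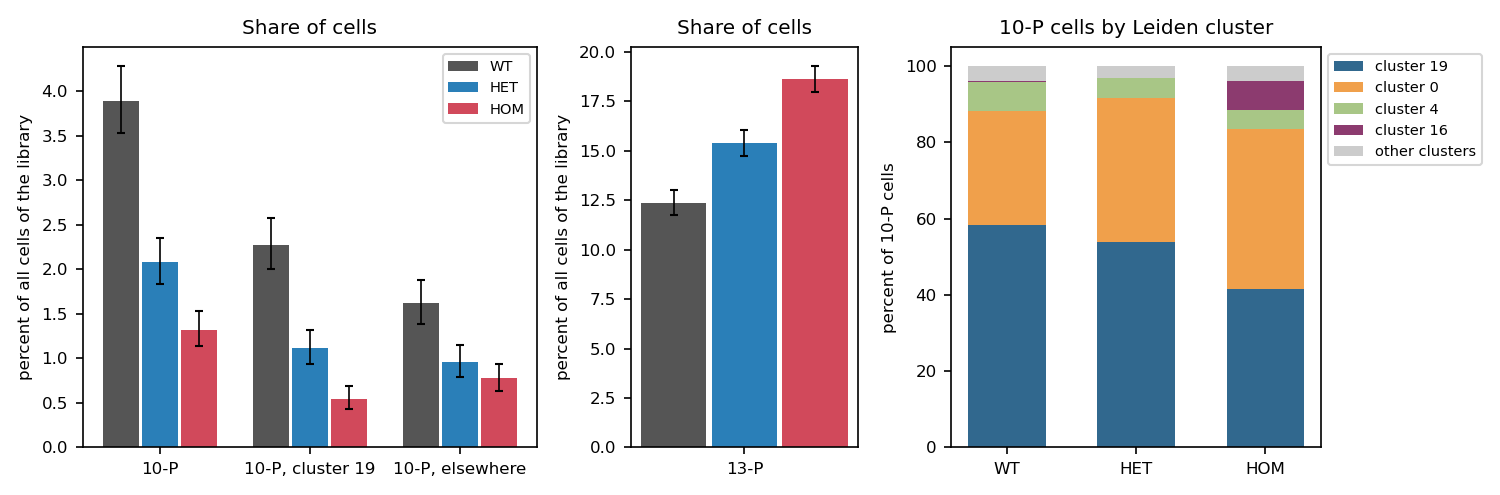
Left and middle, percent of all cells of a library named 10-P, 10-P within or outside Leiden cluster 19, and 13-P, with exact 95% intervals. Right, the Leiden clusters of the 10-P cells as percent of 10-P cells in each library. The share of 10-P runs from 3.89% in WT to 2.08% in HET and 1.32% in HOM while that of 13-P runs from 12.4% to 18.6%, and cluster 19 holds 58.4%, 53.8% and 41.4% of the 10-P cells.

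Set against 13-P within each library, 10-P had higher levels of radial glia transcription factors, of Hedgehog co-receptors and of Sfrp1, Cst3 and Slco1c1, and lower levels of cell cycle genes and of the oligodendrocyte lineage factors Olig1 and Olig2. Of 5537 genes with a summed value of at least 50 over both types in every library, 114 were more than 2-fold higher in all 3 libraries (2.06%) and 77 more than 2-fold lower in all 3 (1.39%). The transferred names rest on the expression of these same cells, so these counts describe the naming and are no test. The median over all 5537 genes was a log2 ratio of 0.01. With the members of cluster 19 alone set against 13-P, 248 of 5196 genes were past 2-fold higher and 287 lower, with medians of 1.49 for the radial glia factors, 2.72 for the Hedgehog list and -2.16 for the cortical neuron genes.

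Among the 16 radial glia transcription factors, 13 had enough signal, 12 of them lay above 13-P on average and 5 were past 2-fold in all libraries, with a median log2 ratio of 1.01. Hopx, a homeodomain-only protein of outer radial glia and of adult stem cells (chromosome 5, 77086988 to 77115121, minus strand), stood at 369, 515 and 144 in WT, HET and HOM in 10-P against 44.3, 26.3 and 16 in 13-P. Pax6, a master regulator of dorsal radial glia, stood at 245, 251 and 115 against 39.2, 39.6 and 28.0. The lowest 10-P value of either gene was above the highest 13-P value, which describes the naming and is no test. Lhx2, a cortical selector gene that restrains gliogenesis, had log2 ratios of 1.98, 2.04 and 1.14, and Nr2e1, an orphan nuclear receptor of neural stem cells, of 1.58, 1.29 and 1.07. Sox2 and Sox9, which all neural stem cells and astrocytes use, differed less, with log2 ratios between 0.84 and 1.01. Tfap2c, an AP-2 factor of basal progenitors, had too little signal to enter the count. It stood at 64.9, 61.9 and 24 in 10-P, at 1.45 in WT 13-P and at 0 in the 13-P cells of both mutants. The list's median was 0.35 in cells matched for molecules, where fewer members could be measured, and depth differed between the types, with a median of 1900 molecules in 10-P and 718 in 13-P of WT.

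The Hedgehog pathway list differed by member. Gas1 and Cdon are co-receptors that present Sonic hedgehog to Patched, and Gli3 is a transcription factor of the pathway that acts mainly as a repressor in the cortex. Gas1 stood at 353, 267 and 216 in WT, HET and HOM against 63.2, 51.6 and 36.9 in 13-P. Cdon stood at 183, 130 and 76.7 against 22.5, 18.1 and 22, and Gli3 had log2 ratios of 2.18, 2.15 and 1.82. These 3 were past 2-fold in every library. Of the other 2 measured members, the receptor gene Ptch1 had log2 ratios of -0.65, 0.06 and 0.30, and Smo, the signal transducer, of 0.13, 0.12 and -0.25. Gli1 and the remaining members of the 11 had too little signal to be counted.

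Other pathways split by member. In the Wnt list, 9 of 12 measured genes lay above 13-P, and Sfrp1 was the only one past 2-fold upwards, at 1247, 1098 and 911 in WT, HET and HOM against 168, 145 and 146. Fzd9, a Wnt receptor gene, was the only one past 2-fold downwards. In the Notch list none of 9 measured genes was past 2-fold in all libraries. Notch2 had too little signal for that count, at 99.4, 48.9 and 43.2 against 23.2, 8.12 and 8.86. The list's median was 0.22 over all cells but -0.44 in cells of at least 2000 molecules and -0.46 in depth-matched cells. In the BMP and Id list, Id4 was past 2-fold upwards with log2 ratios of 1.77, 2.17 and 2.08, while 7 of 10 measured genes lay below 13-P. Id3, a target of BMP signalling, was among these at 468, 1111 and 628 against 1185, 1795 and 1553. In the FGF and EGF list, Fgfr3 and Etv4 were past 2-fold downwards, and Egfr had log2 ratios of -0.86, -1.58 and -2.20.

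**Figure D3:**
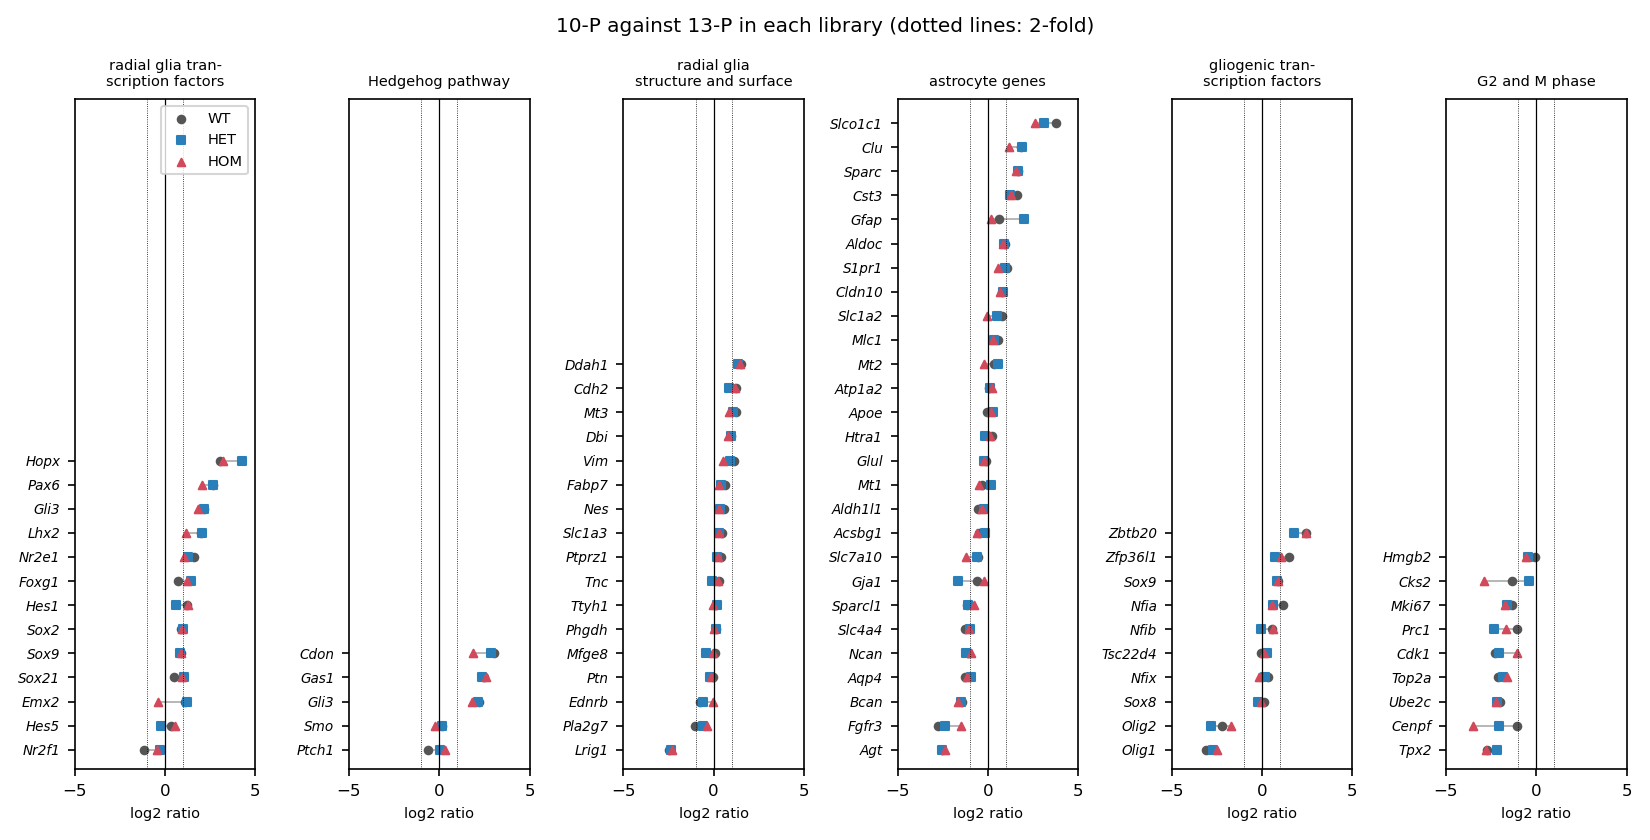
Log2 ratio of the level in 10-P to that in 13-P within each library (circles WT, squares HET, triangles HOM) for the measured members of 6 gene lists, ordered by mean, with dotted lines at 2-fold. Hopx, Pax6, Cdon, Gas1 and Slco1c1 lie beyond 2-fold to the right in all libraries, Olig1, Olig2, Agt and most G2 and M phase genes beyond 2-fold to the left, and most structural radial glia genes lie within 2-fold.

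Genes of the radial glial fibre and surface were shared by both astrocyte types. Of 17 measured, 12 lay above 13-P but only Ddah1 was past 2-fold in all libraries, and Lrig1, a growth factor receptor inhibitor of quiescent stem cells, was past 2-fold downwards. Vim, the intermediate filament vimentin, stood at 2243, 2317 and 1966 against 1027, 1225 and 1357. Fabp7, the radial glial lipid carrier, stood at 11448, 13414 and 13524 against 7255, 10043 and 10795. The glutamate transporter gene Slc1a3 differed by log2 ratios of 0.45, 0.31 and 0.32. These widely used glial markers thus did not separate the types by 2-fold. The list's median was 0.29, and -0.25 in depth-matched cells.

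The 27 measured astrocyte genes fell on both sides, 14 above and 13 below 13-P, with a median of 0.06. Those past 2-fold upwards were Cst3, Clu, Sparc and Slco1c1. Slco1c1, a thyroid hormone and organic anion transporter, stood at 450, 460 and 427 in WT, HET and HOM against 32.7, 52.5 and 70.2. It was higher still in Endothelial1 [17-P], at 1771, 1364 and 1431. Cst3, the secreted protease inhibitor cystatin C, stood at 11792, 11641 and 10661 against 3855, 4975 and 4309. Clu, the secreted chaperone clusterin, stood at 762, 766 and 480 against 211, 210 and 211. Past 2-fold downwards were Agt, Bcan and Fgfr3. Agt, angiotensinogen, stood at 16.2, 6.52 and 24 against 98.7, 47.8 and 136. Bcan, a brain matrix proteoglycan, stood at 292, 267 and 249 against 802, 761 and 777. Aqp4, the water channel of astrocyte endfeet, had log2 ratios of -1.27, -0.96 and -1.17. Gfap, the filament gene of mature and reactive astrocytes, stood at 138, 215 and 57.6 against 89.3, 53.0 and 53.9, so it was higher in 10-P by more than 2-fold in HET alone. The 10-P cells therefore did not carry the astrocyte genes as a block, and their place on that list depended on the gene.

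The gliogenic factors divided sharply. Zbtb20, a zinc finger factor that promotes astrocyte formation, stood at 988, 668 and 791 against 185, 194 and 144. Olig1, a basic helix-loop-helix factor of oligodendrocyte precursors that immature astrocytes also express, stood at 58.8, 81.5 and 120 against 509, 550 and 677. Olig2 stood at 18.3, 9.78 and 28.8 against 90.0, 81.7 and 104. Of the oligodendrocyte list's 12 genes, Gpr17, Neu4 and Bcas1 were among those at 0 in 10-P in all 3 libraries.

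Proliferation genes were low. All 9 measured G2 and M phase genes lay below 13-P and 7 were past 2-fold in all libraries, with a median of -1.81. Mki67 or Top2a was above 0 in 10 of 409 WT members (2.44%, 1.18 to 4.45%), 9 of 251 HET members (3.59%, 1.65 to 6.70%) and 6 of 181 HOM members (3.31%, 1.23 to 7.08%). In 13-P the share was 6.38%, 8.71% and 7.73%, at median depths of 718, 860 and 777 molecules. The part of depth in this difference was not tested. Of 13 measured S phase genes, 12 lay below 13-P and Mcm3 and Rrm2 were past 2-fold.

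Ranked by the smallest log2 ratio over the libraries, the genes furthest above 13-P were Plagl1, Slc14a2, Entpd2, Tmem132b, Cntnap2, Hopx, Ptx3, Thrsp, Fstl5 and Sfrp1. Plagl1, an imprinted zinc finger gene that restrains growth, stood at 253, 212 and 163 in WT, HET and HOM against 17.4, 11.9 and 10.6. Slc14a2, a urea transporter gene, stood at 258, 166 and 201 against 21.1, 8.60 and 8.51. Cntnap2, a neurexin-family cell adhesion gene best known from axons, stood at 203, 339 and 331 against 24, 27.7 and 26.2. The genes furthest below 13-P were Rasl11a, Pla2g3, Timp4, Serpine2, Olig1, Agt, Lrig1, Tpx2, Nebl and Ube2c. Serpine2, a secreted thrombin inhibitor, stood at 48.7, 48.9 and 144 against 717, 950 and 1008. Timp4, a metalloprotease inhibitor, stood at 4.06, 3.26 and 9.59 against 78.4, 72.6 and 103.

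Against all other cells, 11345 genes were measured, with 636 past 2-fold higher in every library (5.61%) and 884 past 2-fold lower (7.79%), and a median log2 ratio of -0.26. The 10 highest were Slc14a2, Entpd2, Veph1, Naaa, Hopx, Plagl1, Fxyd1, Ptx3, Notch2 and Thrsp. Naaa, a lysosomal amidase, stood at 152, 147 and 91.1 against 4.27, 3.54 and 4.10. Past 2-fold upwards were 17 of 18 structural genes, 22 of 27 astrocyte genes, 9 of 15 radial glia factors and 8 of 17 Notch genes. Opposite them were 21 of 25 cortical neuron genes, 10 of 13 inhibitory neuron genes and 9 of 11 microglia genes past 2-fold downwards. Among the 10 lowest were Adarb2, Dlx1as, Dlgap2, Slc32a1, Ly86, Nrsn1, Lamb1, Csf1r and Dlx6os1, which include the macrophage genes Csf1r and Ly86 and the interneuron genes Adarb2, Dlx1as, Dlx6os1 and Slc32a1.

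RNA of microglia, endothelial cells and choroid plexus was sparse in most members. The 12 microglia genes summed to 95.3 in WT, 94.5 in HET and 86.3 in HOM, and their defining members Csf1r and Cx3cr1 were at 0 in all 3. The 11 endothelial genes summed to 79.1, 143 and 197, with Tie1, Sox17 and Slco1a4 at 0 in all. The 7 choroid plexus genes summed to 24.3, 26.1 and 24. The 7 ependymal genes, in contrast, were higher than in 13-P, with sums of 91.3, 68.4 and 106 against 15.2, 15.3 and 16.7. Each had too little signal to be counted. Foxj1, the regulator of motile cilia on that list, stood at 26.4, 19.6 and 19.2 against 3.63, 5.73 and 2.84. The 6 red blood cell genes summed to 795, 460 and 1300, below the 1686, 1212 and 2467 of 13-P.

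Myt1l itself was low in these cells. It stood at 73.0, 101 and 134 in WT, HET and HOM in 10-P, against 383, 457 and 717 in all other cells and 737, 889 and 1406 in LayerII-IV [1-P], the type with the highest mean. In 10-P cells of cluster 19 it stood at 19, 10.9 and 10.1, and in those of cluster 0 at 126, 227 and 194. The deletion leaves the transcript in place, so these levels do not check the genotype. Myt1 and St18, the other members of the family, reached at most 8.11 and 2.03.

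In HET, few genes of 10-P were far from WT. Of 2920 genes with a summed value of at least 50 over both libraries, 9 were past 2-fold higher (0.308%) and 49 past 2-fold lower (1.68%), with a median log2 ratio of 0.01. None of the 12 measured radial glia factors, the 16 structural genes or the 23 astrocyte genes was past 2-fold. Hopx stood at 0.48, Pax6 at 0.04, Lhx2 at 0.14, Emx2 at 0.18 and Gfap at 0.64 on the log2 scale, and Entpd2, Veph1, Hgf and Dct at 0.42, -0.38, -0.09 and 0.43.

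The HET genes furthest above WT were Id3, Bag1, Pla2g7, Eif4a3, Commd4, Trir, Glrx3, Zcrb1, Cyc1 and Ssr4. Id3, an inhibitor of differentiation factors (chromosome 4, 136143497 to 136145755, plus strand), stood at 468, 1111 and 628 in WT, HET and HOM. Its log2 ratio was 1.25 in 10-P, 1.42 in the members of cluster 19, 0.60 in 13-P and 0.93 in all other cells, so it was higher in HET beyond this type too. Pla2g7, a phospholipase of radial glia and astrocytes, stood at 97.3, 186 and 331. Bag1, a co-chaperone, had a log2 ratio of 1.07 in 10-P and 0.50 in cluster 19.

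The HET genes furthest below WT were Sox11, Sox4, Calu, Ywhag, Hist1h1e, Brd2, Oga, Rabac1, Nfib and 2310022B05Rik. Sox11 and Sox4 encode SoxC factors that start neuronal gene expression, and they were the 2 of 17 measured cortical neuron genes past 2-fold. Sox11 stood at 294, 88.0 and 269 in WT, HET and HOM. Sox4 stood at 424, 147 and 326. In the cells of cluster 0, Sox11 stood at 411, 158 and 311 and Sox4 at 664, 256 and 376. In cluster 19 Sox4 had a log2 ratio of -0.86, where 6 of 1895 genes were past 2-fold higher (0.317%) and 22 lower (1.16%). Their log2 ratios were -0.49 and -0.53 in 13-P and -0.60 and -0.57 in all other cells. Calu, a calcium-binding protein of the secretory pathway, stood at 191, 71.7 and 91.1. Of 2493 genes measured in both comparisons, 0 were past 2-fold higher in both mutants and 11 were lower, and both comparisons share the WT library. Besides Calu these included Dnajc10, Zdhhc21, Hnrnpd, Syne2, Plxnb2 and Flna, which had less signal than the naming rule asks.

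In HOM, 2523 genes were measured in 10-P, with 25 past 2-fold higher (0.991%) and 136 past 2-fold lower (5.39%), and a median log2 ratio of -0.02. Scaled by trimmed mean (TMM), which moved the median of all genes by 0.10, the counts were 41 and 100. Transcription factors of radial glia lay low: 9 of 10 measured were below WT, 4 past 2-fold, with a median of -0.70. Hopx stood at 369 in WT and 144 in HOM, Pax6 at 245 and 115, Lhx2 at 178 and 76.7, and Emx2, a regulator of cortical patterning, at 95.3 and 28.8. Their log2 ratios were -1.34, -1.07, -1.18 and -1.63. Sox9 stood at -0.09 and Sox2 at -0.33, and Hes5, the main Notch target of cortical progenitors, stood above WT at 616 and 1012.

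Cluster 19 held 58.4% of WT but 41.4% of HOM members, and the part of this in the values above was not tested. Among members of cluster 19 alone, the median of 9 measured radial glia factors was -0.12 and none was past 2-fold downwards, against 31 of all 1598 genes measured there past 2-fold higher (1.94%) and 56 lower (3.5%). Pax6 stood there at 335, 380 and 221 in WT, HET and HOM, with a log2 ratio of -0.57 in HOM, and Lhx2 at 209, 244 and 151, with -0.43. Hopx stood at 522, 793 and 261, with a log2 ratio of -0.97. Hes5 stood at 819, 1081 and 1820 and was past 2-fold upwards. In 13-P, 13 of 14 measured radial glia factors lay below WT in HOM, 2 past 2-fold, with a median of -0.32 against -0.11 over all 8321 genes measured there, of which 0.853% were past 2-fold higher and 2.22% lower. In HET the shares in 13-P were 0.659% and 0.912%.

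Within cluster 19 the median depths were close, but the lower quartiles were 2234, 3157 and 4608 molecules in WT, HET and HOM. In that cluster, Hopx was above 0 in 34.7% of WT (28.7 to 41.1%), 51.1% of HET (42.4 to 59.8%) and 20.0% of HOM cells (11.6 to 30.8%). Pax6 was above 0 in 36.0%, 42.2% and 24%. The interval of Hopx in HET lay above both others without overlap, and those of WT and HOM overlapped. Sfrp1, which marks the type broadly, was above 0 in 90.8%, 90.4% and 82.7%. In cells of at least 4500 molecules, where the medians were 6113, 6139.5 and 6102, Hopx was above 0 in 41.9% (33.2 to 50.9%), 57.0% (45.8 to 67.6%) and 20.3% (11.0 to 32.8%), and Pax6 in 40.3%, 39.5% and 20.3%. There the Hopx interval of HOM lay below both others without overlap, while those of WT and HET overlapped. Sfrp1 was above 0 in 93.0%, 95.3% and 88.1%. The limit of 4500 molecules was chosen after the data were seen. Hopx was among the genes furthest below WT in HOM, ranked on the same values. These intervals cover counting error only and cannot test a difference between genotypes, because no cell is tied to an animal.

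**Figure D4:**
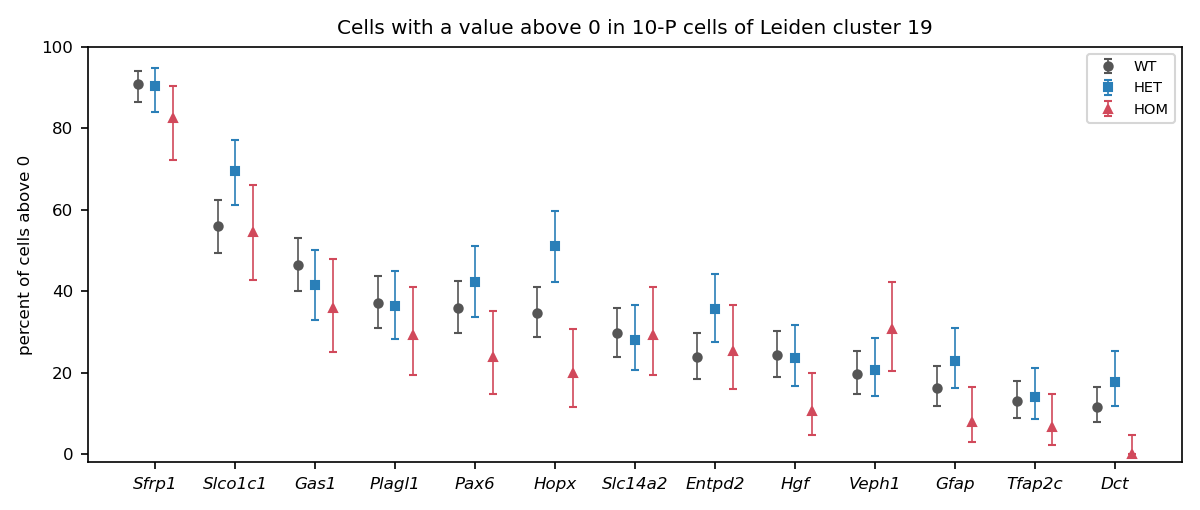
Percent of 10-P cells of Leiden cluster 19 with a value above 0 for 13 genes, by library (circles WT, 239 cells; squares HET, 135 cells; triangles HOM, 75 cells), with exact 95% intervals. Sfrp1 is above 0 in 82.7% to 90.8% of cells, Hopx in 34.7%, 51.1% and 20.0%, and Dct in 11.7%, 17.8% and 0%.

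The marker genes themselves differed in HOM. Dct was above 0 in 28 of 239 WT cells of cluster 19 (11.7%, 7.93 to 16.5%) and 24 of 135 HET cells (17.8%, 11.7 to 25.3%). It was above 0 in 0 of 75 HOM cells of cluster 19, and in 0 of all 181 HOM members (0 to 2.02%). In cells of at least 4500 molecules it was above 0 in 16 of 129, 17 of 86 and 0 of 59 (0 to 6.06%). Hgf stood at 140 in WT and 43.2 in HOM, a log2 ratio of -1.63, and at -1.25 in cluster 19. Veph1 and Entpd2 stood at 0.13 and -0.08, and at 0.60 and 0.08 in cluster 19. Within 10-P, Dct and Hgf were thus low in HOM where Veph1 and Entpd2 were not. In related types few cells held either gene. Hgf stood at 7.99, 6.69 and 2.48 in 13-P of WT, HET and HOM, above 0 in 11, 13 and 5 cells. Dct stood at 7.39, 19.8 and 1.73 in Ganglionic eminences [9-P], above 0 in 5, 7 and 1 cells. Whether the difference is particular to 10-P was not tested.

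Among other genes of glial identity in HOM, Gfap stood at 138, 215 and 57.6 in WT, HET and HOM, with a log2 ratio of -1.21 and of -1.34 in cluster 19. Notch2, a Notch receptor of quiescent stem cells, stood at 99.4, 48.9 and 43.2, or -0.99 and -1.14 on the log2 scale. It was also lower in all other cells, by -1.27 and -0.99. Cdon had log2 ratios of -0.48 in HET and -1.21 in HOM, and Gas1 of -0.40 and -0.70. Nfix, a nuclear factor of gliogenesis, stood at 440, 280 and 187, with a log2 ratio of -1.22 in HOM and -0.84 in cluster 19. Olig1, low in this type, stood at 58.8, 81.5 and 120, past 2-fold in HOM, and at 56.9, 103 and 80.4 in cluster 19. Cst3, Slco1c1, Fabp7, Vim and Sox9 had log2 ratios between -0.19 and 0.24 in HOM, and Clu had -0.66.

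The HOM genes furthest below WT were Dhx15, Syncrip, Dpm3, Hopx, Phf20l1, Cbx3, Tmem132b, Nfix, Cdon and Lhx2. Dhx15, an RNA helicase that takes spliceosomes apart, stood at 185, 108 and 43.2 in WT, HET and HOM, a log2 ratio of -2.03 in HOM. The ratio was -1.79 in cluster 19, -1.03 in 13-P and -1.23 in all other cells. Syncrip, an RNA-binding protein gene, had log2 ratios of -1.65 in 10-P and -1.39 in cluster 19 but -0.14 in 13-P, and Dpm3 of -1.46, -1.69 and 0.26.

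The HOM genes furthest above WT were Ptgds, Pla2g7, Stmn3, Gng3, Ndufs5, Csdc2, Sox1ot, Fth1, Cnih2 and Fos. Pla2g7 stood at 97.3, 186 and 331 in WT, HET and HOM, log2 ratios of 0.93 and 1.76. In cluster 19 they were 1.46 and 1.80, in 13-P 0.50 and 1.13 and in all other cells 0.89 and 1.68, so this difference was not confined to 10-P. Gng3, a G protein subunit gene, had a log2 ratio of 1.10 and of 1.21 in cluster 19, and Fth1, ferritin heavy chain, of 1.02 and 0.88. Sox1ot, the long noncoding RNA that overlaps Sox1, had 1.03 and 1.46, against -0.01 in 13-P. Stmn3, a neuronal microtubule regulator, had 1.11, and it stood at 292, 660 and 622 in cluster 0 against 94.8, 76.0 and 121 in cluster 19.

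**Figure D5:**
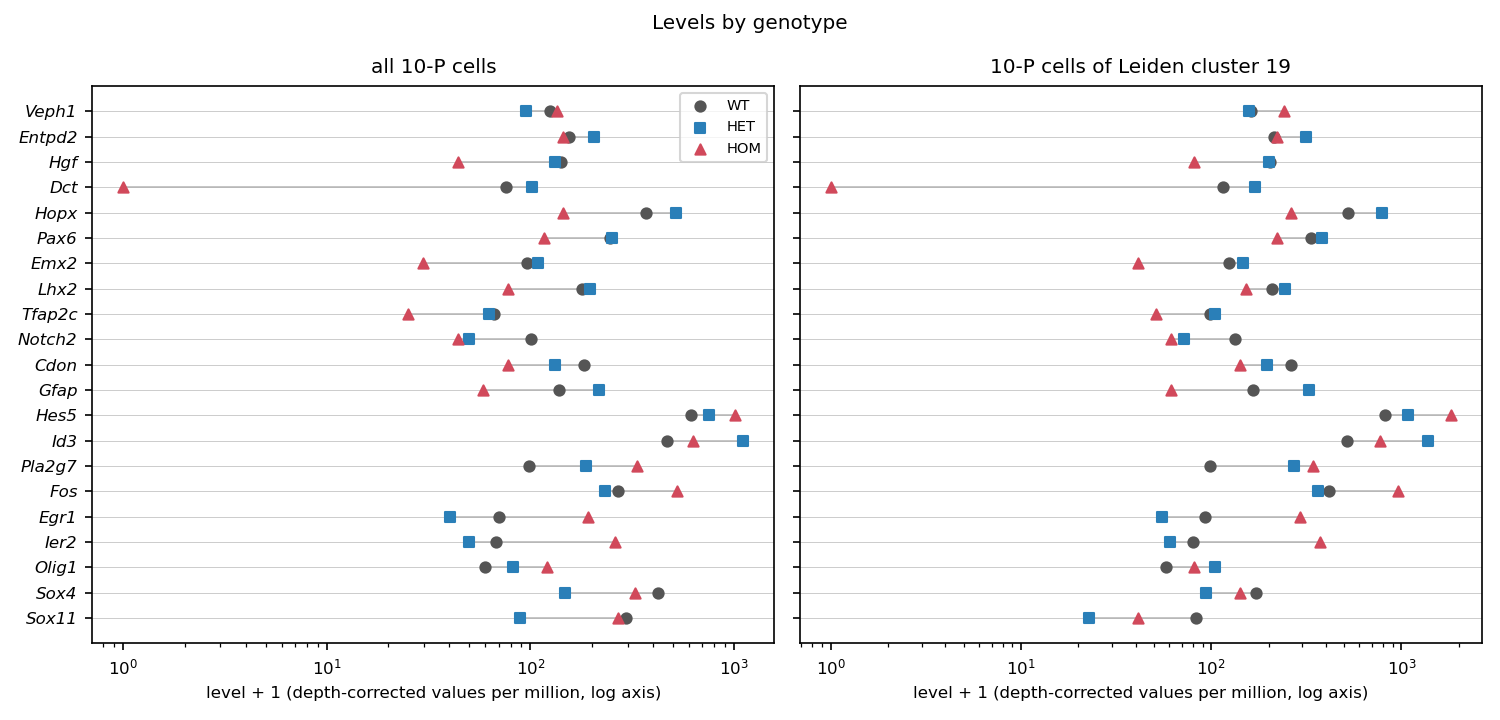
Levels of 21 genes in WT (circles), HET (squares) and HOM (triangles), as depth-corrected values per 1000000 plus 1 on a log axis, in all 10-P cells (left) and in those of Leiden cluster 19 (right). HOM lies lowest for Hgf, Dct, Hopx, Pax6, Emx2, Lhx2, Tfap2c and Gfap and highest for Hes5, Pla2g7, Fos, Egr1 and Ier2 in both panels.

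Immediate early and stress genes lay above WT in HOM as a list. All 7 measured genes were above WT and Egr1 and Ier2 were past 2-fold upwards, as 0.991% of all genes were, with a median of 0.33. Egr1 stood at 68.9, 39.1 and 192 in WT, HET and HOM. Ier2 stood at 66.9, 48.9 and 259, and Fos at 270, 231 and 523. In cluster 19 the log2 ratios of Fos, Egr1 and Ier2 in HOM were 1.20, 1.67 and 2.23. In 13-P they were 1.00, 1.01 and 1.03 and in all other cells 1.31, 1.38 and 0.99, so these genes were higher across the HOM library. Glycolysis and hypoxia genes lay above WT in 9 of 11 measured cases in HOM without any past 2-fold, with medians of 0.49 in 10-P, 0.61 in cluster 19 and 0.58 in 13-P.

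Ptgds, prostaglandin D2 synthase and an abundant product of meningeal fibroblasts and choroid plexus (chromosome 2, 25466709 to 25470046, minus strand), stood at 8.11, 19.6 and 3036 in WT, HET and HOM. Of the summed HOM value of 633, 512 (80.9%) lay in the 14 members of cluster 16. Without that cluster its log2 ratio was 6.10. In cluster 19 it stood at 12.6, 32.6 and 322, in 13-P at 7.26, 9.55 and 289 and in all other cells at 5.98, 5.20 and 601. In HOM it reached 40539 in Choroid plexus [20-P] and 18024 in Endothelial2 [21-P]. The 11 meningeal fibroblast genes summed to 58.8, 26.1 and 3252 in 10-P, and to 677 in HOM without cluster 16, with Col1a1, Dcn and Foxc1 at 0 in HOM. The 6 mural genes summed to 128, 209 and 225. The part of such cells or their free RNA in the HOM values was not tested.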

How the data were processed

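Per the labels and the study's methods, the authors aligned reads of the 12 runs to mm10 with Cell Ranger 4.0.0, used Seurat 4.0 and Scanpy, removed blood cells and cells outside limits on detected genes and mitochondrial content, and named cells by transfer learning from a reference atlas. The deposited matrix of 18879 genes is a score of arbitrary unit, whole-numbered and already corrected for depth: its total per cell was 825 to 1952, whereas the authors' molecule counts per cell were 499 to 17602. Within 10-P the totals were 846 to 1890 and the molecules 500 to 10077. How this correction was made is not stated in those sources. The deposited cell table gives molecules and genes as counts, mitochondrial content as percent, the name's probability as a fraction and the Leiden cluster. The authors' comparison tables, with log2 fold changes and p-values from tests over cells, were not used. No source names a step against doublets, and none was added.

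Values were summed over the cells of each type and library and divided by their total, per 1000000. Log2 ratios were taken after adding 0.5 to each sum. A gene counted as measured from a sum of 50 over both groups (in every library for comparisons between types) and as called past 2-fold; comparisons between types were called past 2-fold in all 3 libraries. Intervals are exact Clopper-Pearson at 95%. With 1 library per genotype no test was made. The calculation was tested on simulated data.

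Genes named are the given markers and the Myt1 family, up to 4 members of each described list with the largest ratios plus members that define a cell type, the 10 highest and 10 lowest genes of each comparison (from a sum of 100 for genotypes), and genes past 2-fold in both mutants. Sex-linked, red blood cell, ribosomal, ribosomal RNA-like and mitochondrial genes were left out of the rankings. Genes named besides these were chosen after their values were seen. The members and the 29 gene lists were chosen with earlier results of these data known. Wnt8b, Neurog1, Folr1, Ccdc153 and Tmem212 were not analysed here, and a few genes that the rule selects are not reported here. The alternatives were other scalings, sums, folds, depths and probabilities, and 3 chosen after seeing the data (members of Leiden cluster 19 only, cells outside cluster 16, and cells of cluster 19 of at least 4500 molecules). Python 3.11.15, numpy 2.4.6, scipy 1.17.1 and pandas 2.3.3 were used, with gene positions from GENCODE M21.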

Additional observations from a re-analysis of the deposited data

Results flagged for a closer look

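The share of 10-P and that of 13-P differed from WT in opposite directions in both mutant libraries, which is what drew attention to this pair of related types. In HET the log2 ratio of the share to WT was -0.91 for 10-P and 0.32 for 13-P, a difference of -1.22. In HOM it was -1.56 for 10-P and 0.59 for 13-P, a difference of -2.15. The difference was not tested, since each genotype is 1 library. The shares belong to 1 total per library, and both comparisons share the WT library.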

How the results depend on the processing

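No paired analysis was possible because each genotype is 1 library and the result comes from no test. Leaving out 1 animal could not be run, as no column ties cells to animals. No list median past 2-fold and no named gene past 2-fold turned its direction under an alternative in which it was measured. Some alternatives could not have turned a gene past 2-fold. Other minimum sums leave its ratio as it is. TMM, median-of-ratios scaling and totals without technical genes shift all genes of a library pair alike, and moved the median by at most 0.10. Genes with too little signal under an alternative were left out. Smaller list medians did turn in some cases, as given above for the Notch list and the structural radial glia list against 13-P. Over all genes past 2-fold, those that turned numbered at most 1 in HET, 3 in HOM (cluster 19), 0 against 13-P and 52 against all other cells (in cells without non-neural genes). The share of 10-P relative to WT stayed between 0.491 and 0.562 in HET and between 0.241 and 0.346 in HOM. The shares themselves moved to 4.82% in WT and 2.44% in HET from 1000 molecules, to 5.51% and 2.98% from 2000 molecules, to 23.9%, 11.9% and 6.63% (WT, HET, HOM) among both astrocyte types, and to 2.28%, 1.12% and 0.548% for cluster 19 only. In HET 58 genes were past 2-fold, against 424 from a sum of 20, 3 from a sum of 200, 28 in cells of at least 2000 molecules, 28 in cluster 19 and 405 at 1.5-fold. In HOM 161 were, against 710, 12, 59, 87 and 566 under the same settings, 52 in depth-matched cells and 63 in cells without non-neural genes. Against 13-P 191 were, against 329, 49, 115, 535 and 485, and 46 and 121. Against all other cells 1520 were, against 241 in depth-matched cells and 2806 at 1.5-fold. Fewer genes were measured in smaller sets of cells; other causes were not tested. In HOM the share of genes past 2-fold that lay above WT was 15.5%, 29.1% with TMM and 26.1% with median-of-ratios scaling. Recomputed list medians moved by less than 1.5-fold in 449 cases and by more in 15, and values of named genes in 1014 and 62. These counts include the minimum sums, which cannot move the ratio of a gene, and the scalings that shift all genes alike. The radial glia factors in HOM had a median of -0.70, and of -0.09 from a sum of 200. Shares of cluster 19 cells above 0 in cells of at least 4500 molecules left the interval of the main value in 2 of 12 cases. Deep cells hold fewer genes above 0 in the deposited values than were detected in them, which limits what can be read of low genes.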

Other observations

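Further genes were past 2-fold above 13-P in all 3 libraries. Malat1, a nuclear long noncoding RNA, stood at 22711, 26972 and 18340 in WT, HET and HOM of 10-P against 8286, 11343 and 8527 in 13-P. Meis2, a homeobox gene on the inhibitory neuron list, stood at 633, 544 and 619 against 253, 266 and 214. These genes were chosen after their values were seen, and depth differed between the types as given above.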
